A study of Mus musculus with 12 samples.

Results

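C2C12 cells, a mouse myoblast line that withdraws from the cell cycle and fuses into myotubes when serum is reduced, were followed here between 18 h and 48 h after the change to differentiation medium, in the control cells of the series. These cells had received a scrambled siRNA (siSCR). The samples were chosen by their titles as the siSCR samples at both times, which gives 4 of the 12 samples, 2 at each time. The series as a whole asks what the chromatin remodelling ATPases BRM (gene Smarca2) and BRG1 (gene Smarca4) do in this process, and its other 8 samples received an siRNA against one of them (siBRM or siBRG1) at the same times. All groups were transfected with 100 nM siRNA by Dharmafect3, grown in RPMI rich in FBS and differentiated in RPMI with a smaller share of HS, as the labels write it, and ITS, so the 18 h group is itself a transfected, already induced culture and no undifferentiated sample enters the comparison. Both groups come from 1 cell line. That the replicates were separate cultures is stated nowhere in the sources used here, and every p-value therefore reflects the spread between arrays, which may be technical.

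When myoblasts are deprived of growth factors, the bHLH factors MyoD and myogenin act with MEF2 proteins on E-boxes and MEF2 sites of muscle genes, the cell-cycle genes are silenced, and mononucleated cells fuse. The products that accumulate are the sarcomere, the sarcoplasmic reticulum that stores its calcium, and the enzymes that supply it with ATP. Insulin-like growth factor II is an autocrine signal that C2C12 cells make during this process, and follistatin is a secreted antagonist of myostatin, which limits muscle growth.

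RNA was measured on Illumina BeadChip arrays, where each probe is read as a fluorescence intensity. Values below are normalized log2 signals, given for replicate 1 and then replicate 2, and a difference is the 48 h value minus the 18 h value, so that 1 unit is a doubling. A probe is called detected when the deposited detection p is under 0.05 and is otherwise at background. In replicate 2 both siSCR samples lay on the same BeadChip, so its difference is a within-batch value. In replicate 1 each time lay on a BeadChip of its own, where time and BeadChip cannot be told apart. In that replicate 29.72% of the probes were detected at 18 h and 35.29% at 48 h, and the mean raw signal was 521.6 and 794. In replicate 2 the shares were 38.31% and 39.37% and the mean signals 1464.4 and 1643.7. The part of this difference in signal in the results was not tested. Across the 20415 tested probes the 18 h replicates correlated with r = 0.882 and the 48 h replicates with r = 0.928. These are bulk samples, in which fewer cells of a type and less RNA per cell cannot be told apart.

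Between 18 h and 48 h the muscle genes rose by the largest steps, and genes outside the muscle lists, among them the secreted factor genes Fgf21, Igf2 and Fst, rose as well. The genes that fell included those of the proliferin hormones, the detoxifying enzymes Aldh3a1 and Nqo1, the keratins Krt13 and Krt14 and the cell-cycle regulators Ccne2 and Anln. Over the 10847 genes tested the median difference was -0.05, with -0.04 in replicate 1 and -0.06 in replicate 2. The fit of 6 group means without a block called 35 genes higher at 48 h, which is 0.323% of the genes tested, and 2 lower, which is 0.0184% (limma, adjusted p under 0.05). The replicate numbers of the labels are taken to pair the samples, as samples of the same number deviated together from their group means. All samples of replicate 1 lay on other BeadChips than those of replicate 2 and had lower mean signals. A pairing of cultures and a BeadChip difference therefore cannot be told apart here. With the replicate number as a block the residual variance was 0.1198 in place of 0.3772, and 243 genes (2.24%) were called higher and 126 (1.16%) lower. All 37 genes called without the block were among these 369. All 369 had the same sign in both replicates, beside 2751 of the 10847 genes tested that were higher in both and 3458 that were lower in both. The calls rest on the same values, so nothing is read from the shared sign. With the BeadChip as a block in place of the replicate number 217 of the 369 were called where it was a fixed block and 294 where it was a random one, 214 of them in both. Each gene below that loses its call in this way is named at the end of the paragraph that describes it. Below, a gene is said to have risen or fallen where the fit with the replicate block called it. Counts of rises and falls in a list are to be read beside the 2.24% and 1.16% of all genes tested. Over all genes tested 596 had an unadjusted p under 0.05 in limma without the block and 2182 with it. The p of the fit without the block is given first and that with the block second.

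Without any test, 317 genes (2.92%) were higher at 48 h by more than 1 log2 unit in both replicates, and 201 (1.85%) were lower by that much. Of the 243 genes that rose, 132 were detected on all 4 arrays and 51 were at background on both 18 h arrays. Of the 126 that fell, 106 were detected on all 4 arrays and 5 were at background on both 48 h arrays. The values at the 2 times did not overlap for 234 of the risers and 104 of the fallers. Over all genes tested both 48 h values lay above both 18 h values in 1375 (12.7%) and below them in 1382 (12.7%), and as the calls rest on the same values nothing is read from the larger share among them. The muscle and cell-cycle lists, with 325 tested genes, held 80 of the risers and 13 of the fallers, so that 163 risers and 113 fallers lay outside these lists. The split between rises and falls moves with the scaling of the arrays. With median scaling and the replicate block 379 genes were called higher and 16 lower, and the median of all genes moved to 0.27. With the authors' normalized values and the block the counts were 361 and 329.

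**Figure D1:**
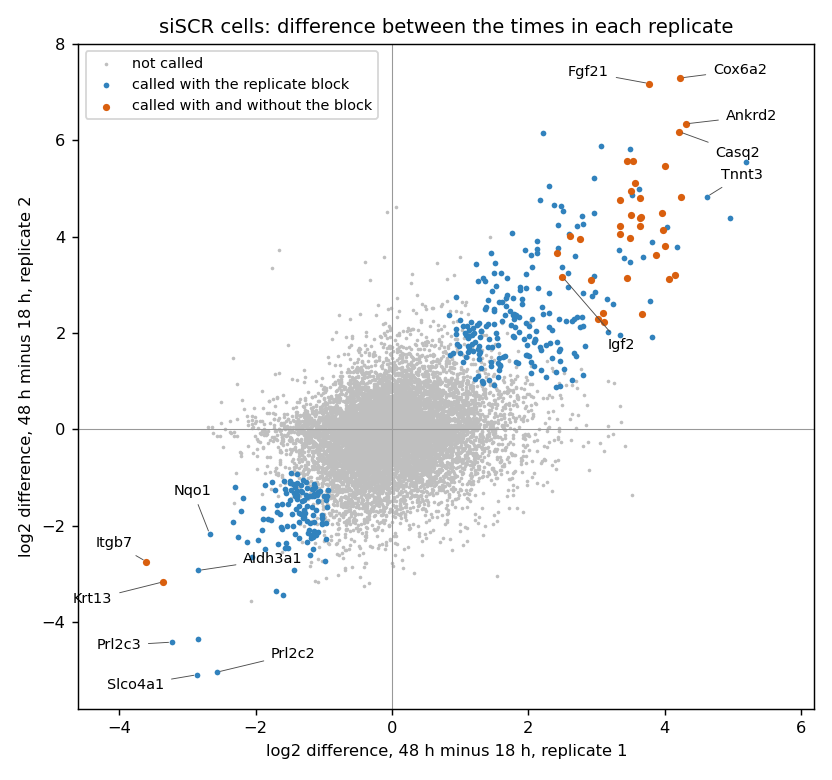
Difference between 48 h and 18 h of siSCR cells in replicate 1 (horizontal axis) and replicate 2 (vertical axis), in log2 units, with 1 point for each of the 10847 genes tested. Orange points were called by limma with and without the replicate block, blue points with the block alone and grey points by neither. The 369 called genes lie in the quadrants where both replicates have the same sign, with Cox6a2, Fgf21, Ankrd2 and Casq2 at the upper end and Prl2c2, Prl2c3 and Slco4a1 at the lower end. The calls rest on the same differences, so nothing is read from the shared sign.

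Genes of the contractile proteins rose. Of 37 listed genes of the thick and thin filaments 27 were tested and 19 of these rose, with a median of 3.04 (2.92 and 3.38 in the replicates), and 10 were called without the block. Tnnc2, the calcium-binding troponin C of fast fibres, read 11 and 10.99 at 18 h and 15.25 and 15.80 at 48 h, a difference of 4.53 ± 0.41 (SE, n = 2) (adjusted p = 0.0128 and 0.00024). Both 48 h values lay above both 18 h values. The embryonic light chain gene Myl4 read 11.74 and 11.01 at 18 h and 15.38 and 15.82 at 48 h, a difference of 4.22 ± 0.53 (SE, n = 2) (adjusted p = 0.0193 and 0.000547). Fast troponin T and fast troponin I rose by nearly the same step in both replicates from levels that lay far apart. Tnnt3 read 6.83 and 9.17 at 18 h and 11.45 and 14 at 48 h, so the differences within the replicates were 4.62 and 4.83, and it was called with the block alone (adjusted p = 0.43 and 0.000298). Tnni2 followed with 4.04 and 4.21 (adjusted p = 0.358 and 0.000522). Slow troponin I, Tnni1, was at background at 18 h in replicate 1, where it rose at least 9.66-fold, and it rose by 4.38 in replicate 2 (adjusted p = 0.893 and 0.00024). A bound of this kind sets the detected level against the detection limit of the other array, the lowest signal among its detected probes.

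Skeletal actin and the kinase Srpk3 are named after their values were seen. Acta1 read 11.29 and 12.04 at 18 h and 15.36 and 15.16 at 48 h, a difference of 3.59 ± 0.43 (SE, n = 2) (adjusted p = 0.0182 and 0.00058). Srpk3, a muscle-restricted kinase of splicing factors, rose by 3.81 in replicate 2 and at least 10.5-fold in replicate 1, where its 18 h signal was at background (adjusted p = 0.0128 and 0.00024). At the Z-disc and M-band 19 of 26 tested genes rose, with a median of 2.23. Myom2, a myomesin that links thick filaments at the M-band, read 8.95 and 8.28 at 18 h and 12.51 and 13.40 at 48 h, with every 48 h value above every 18 h value (adjusted p = 0.0182 and 0.000741). Ankrd2, a stretch-responsive ankyrin repeat protein, and Myoz2, a Z-disc binding partner of calcineurin, were at background on both 18 h arrays and detected on both 48 h arrays. Ankrd2 was at least 17.2-fold higher at 48 h (adjusted p = 0.0197 and 0.000817) and Myoz2 at least 16.2-fold (adjusted p = 0.189 and 0.0185). The LIM protein gene Csrp3 was detected at 18 h in replicate 2 alone and rose there by 5.47, and at least 8.74-fold in replicate 1 (adjusted p = 0.0182 and 0.00125).

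Genes of the calcium store rose as well. Of 23 tested genes of excitation-contraction coupling 13 rose, with a median of 1.81. Casq2, a calsequestrin that buffers calcium in the sarcoplasmic reticulum, read 7.04 and 6.41 at 18 h and 11.26 and 12.59 at 48 h, a difference of 5.20 ± 0.53 (SE, n = 2) (adjusted p = 0.0128 and 0.000487). Hrc, a histidine-rich calcium-binding protein of the same compartment, read 8.08 and 7.35 at 18 h and 11.74 and 11.76 at 48 h (difference 4.03 ± 0.53 (SE, n = 2), adjusted p = 0.0197 and 0.000269). Both genes were higher at 48 h in each replicate with no overlap between the times. The calcium pump gene Atp2a1 rose by 3.50 and 3.97 (adjusted p = 0.0182 and 0.00024). The release channel gene Ryr1 was at background at 18 h in replicate 1, where it rose at least 14.7-fold, and by 3.20 in replicate 2 (adjusted p = 0.0304 and 0.00225).

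The stretches before the start sites of Casq2, Hrc and Acta1 are shown because these genes rose by 3 or more units in both replicates and each holds a motif of the muscle regulators. They are the 250 bases before the RefSeq start on GRCm38.p6, 5′ to 3′ on the gene's strand. Capitals mark a MEF2 motif in Casq2 (starting at position -69 from the start site), an E-box CAGCTG in Hrc (-22), and in Acta1 an E-box CAGCTG (-221), a CArG box, the motif of serum response factor (-73), and TATAAA (-7). These genes were picked for display after the motif search.
Casq2 (chr3:102086165-102086414, plus strand): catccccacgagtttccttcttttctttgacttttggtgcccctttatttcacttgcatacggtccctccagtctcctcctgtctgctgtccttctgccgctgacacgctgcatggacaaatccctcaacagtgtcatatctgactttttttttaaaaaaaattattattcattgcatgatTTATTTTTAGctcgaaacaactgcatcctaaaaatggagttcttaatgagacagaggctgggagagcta
Hrc (chr7:45335019-45335268, plus strand): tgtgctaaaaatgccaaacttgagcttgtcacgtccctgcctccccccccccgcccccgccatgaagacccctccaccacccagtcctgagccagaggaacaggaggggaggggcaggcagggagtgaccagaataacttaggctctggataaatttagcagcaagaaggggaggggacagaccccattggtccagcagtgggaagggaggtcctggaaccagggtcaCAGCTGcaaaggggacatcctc
Acta1 (chr8:123894776-123895025, minus strand): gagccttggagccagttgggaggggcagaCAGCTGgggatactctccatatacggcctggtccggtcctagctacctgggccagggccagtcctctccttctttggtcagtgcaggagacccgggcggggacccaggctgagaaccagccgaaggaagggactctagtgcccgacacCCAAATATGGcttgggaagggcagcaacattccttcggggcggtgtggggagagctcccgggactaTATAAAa

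In the RefSeq windows from 250 bases before to 50 after a start, searched on both strands, 182 of the 243 risers, 98 of the 126 fallers and 8775 of the 10847 tested genes had at least 1 window. The E-box CAGCTG, the form that myogenic bHLH factors prefer, was in 30.7% of the 264 windows of risers, 11.7% of the 137 windows of fallers and 15.6% of the 11216 windows of tested genes. The general E-box CANNTG, which contains that form, was in 76.9%, 66.4% and 64.4%. A MEF2 motif was in 7.6%, 1.5% and 1.8%, a CArG box in 4.5%, 0.7% and 1.4%, and TATAAA in 11%, 5.8% and 8.0%. Of motifs known from cell-cycle promoters, TTTGAA, the core of the cell-cycle homology element, was in 10.2% of riser windows, 19% of faller windows and 12% of tested windows, and CCAAT in 33.3%, 42.3% and 37.7%. A match is a description of these letters and not a site of binding.

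Among the genes of energy supply some muscle-specific members rose. The list holds genes of creatine kinase, glycogen and muscle glycolysis, and also Cox6a2, Cox8b and Mb. Of its 22 tested genes 8 rose, with a median of 0.89, and 14 were higher and 4 lower in both replicates. Cox6a2, the muscle subunit VIa of cytochrome c oxidase, read 7.52 and 6.78 at 18 h and 11.75 and 14.07 at 48 h, the largest mean difference among genes detected on all 4 arrays (5.76 ± 0.71 (SE, n = 2), adjusted p = 0.0184 and 0.00195). Its step was 4.23 in replicate 1 and 7.29 in replicate 2. The oxygen carrier myoglobin, Mb, read 8.02 and 7.46 at 18 h and 11.46 and 13.02 at 48 h (adjusted p = 0.0327 and 0.00419). Cox8b, the muscle subunit VIII, and Ckm, muscle creatine kinase, were at background at 18 h in replicate 1. Ckm rose there at least 14.8-fold and by 5.55 in replicate 2 (adjusted p = 0.0717 and 0.000476), and Cox8b at least 10.3-fold and by 4.87 (adjusted p = 0.0592 and 0.00125). None of the 55 tested nuclear genes of the general respiratory chain and citrate cycle was called by limma with or without the block, and 1 and 5 of them had an unadjusted p under 0.05 without and with it. Their median was 0.27 (0.48 and 0.03), with 25 higher in both replicates and 10 lower in both, and the 2 with the smallest p in the fit without the block were Ndufa4 (-0.84 and -1.28) and Ndufs4 (0.65 and 0.47).

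Among fusion and membrane genes 7 of 26 rose and 1 fell, with a median of 0.40. Mymk, which encodes the fusion protein myomaker, read 9.45 and 8.10 at 18 h and 12.94 and 13.92 at 48 h, a difference of 4.65 ± 0.87 (SE, n = 2) that the fit without the block did not call (adjusted p = 0.0909 and 0.00311). Trim72, a membrane repair protein, rose by 2.81 and 4.26 (adjusted p = 0.201 and 0.00241). Itgb1bp2, the chaperone melusin, rose at least 4.27-fold in replicate 1, where it was at background at 18 h, and by 4.99 in replicate 2. Tmem182, a muscle membrane protein, was detected at 48 h alone and was at least 9.96-fold higher (adjusted p = 0.0601 and 0.00334). In the dystrophin-associated complex 2 of 13 genes rose. Sgca, alpha-sarcoglycan, read 6.73 and 7.37 at 18 h and 10.69 and 11.85 at 48 h (difference 4.22 ± 0.49 (SE, n = 2), adjusted p = 0.0182 and 0.000817), and the laminin chain gene Lama2 rose by 0.91 in replicate 2 and at least 1.71-fold in replicate 1. Lama2 was not called with the BeadChip as a fixed block (adjusted p = 0.123). Lama2 was not called with the BeadChip as a random block (adjusted p = 0.141).

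The postsynaptic list gave 3 rises and 1 fall in 14 genes. Chrng, the fetal gamma subunit of the acetylcholine receptor, rose by 1.79 and 2.40 (adjusted p = 0.439 and 0.00467), and the alpha subunit gene Chrna1 by 1.43 and 1.03 (1 and 0.0395 as adjusted p). The adhesion molecule gene Ncam1 read 11.40 and 9.73 at 18 h and 13.54 and 13.64 at 48 h, without overlap between the times (adjusted p = 0.313 and 0.00346). Nrg1, the neuregulin that signals to muscle from nerve and from muscle itself, fell by 1.21 in replicate 1 and at least 3.41-fold in replicate 2, where it was at background at 48 h (adjusted p = 1 and 0.0275). Chrna1 and Nrg1 were not called with the BeadChip as a fixed block (adjusted p = 0.104 and 0.0695). Chrna1 and Nrg1 were not called with the BeadChip as a random block (adjusted p = 0.0896 and 0.0506).

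The transcription factors moved by smaller steps than the sarcomere genes. Of 22 tested myogenic factors 6 rose, with a median of 0.52, and none was called without the block. Myog, myogenin, read 9.86 and 10.69 at 18 h and 12.45 and 13.65 at 48 h (difference 2.77 ± 0.60 (SE, n = 2), adjusted p = 0.166 and 0.00241). Myod1 read 8.26 and 9.64 at 18 h and 9.96 and 12.44 at 48 h (adjusted p = 0.946 and 0.0205). Mef2c rose by 0.95 and 2.76 (adjusted p = 0.952 and 0.0466) and Tead4, a TEAD factor of the Hippo pathway with muscle targets in mouse, by 1.91 and 2.61 (adjusted p = 0.108 and 0.00457). Of 17 listed inhibitors of myogenesis that were tested, Twist2, a bHLH repressor of MyoD, was the one called, and it fell from 11.42 and 10.34 at 18 h to 9.65 and 8.45 at 48 h (adjusted p = 0.722 and 0.00517). None of 12 listed Notch genes and 21 listed Wnt and BMP genes was called by limma with or without the block, and 3 and 4 of them had an unadjusted p under 0.05 with it. With the BeadChip as a fixed or a random block Fzd2, a Wnt receptor gene of the list (1.05 and 1.89), was called higher (adjusted p = 0.0302 and 0.0166). Outside the list Wnt7b fell and Chrd and Kremen2 rose, as given below. Smarca2 and Smarca4 themselves differed by -0.26 and -0.09 and by 1.04 and 0.02 in the replicates and were not called (adjusted p with the block 0.812 and 0.394). The myoblast markers Cdh15, Ncam1, Chrna1 and Myod1 rose, which are 4 of the 8 tested markers of the myoblast. Of these 8 genes 7 were detected on all 4 arrays, and Myf5 did not pass the detection filter. Myod1 and Cdh15 were not called with the BeadChip as a fixed block (adjusted p = 0.0701 and 0.0692).

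Outside the muscle and cell-cycle lists the largest rise was that of a hormone. Fgf21, a secreted metabolic FGF that acts on fat and brain and is made by muscle under mitochondrial or nutrient stress, read 7.57 and 6.90 at 18 h and 11.35 and 14.08 at 48 h. Its difference was 5.48 ± 0.84 (SE, n = 2) on the log2 scale, with 3.78 in replicate 1 and 7.18 in replicate 2 (adjusted p = 0.0365 and 0.00582). Both 48 h values lay far above both 18 h values, and the 2 replicates at 48 h were themselves apart by more than 2 units. Chac1, an enzyme that degrades glutathione and a target of the stress factor ATF4, read 10.42 and 10.19 at 18 h and 11.87 and 13.85 at 48 h (adjusted p = 0.232 and 0.0362). Herpud1, a component of endoplasmic reticulum degradation, rose by 2.09 and 1.82 (adjusted p = 0.128 and 0.00616). These were the 3 rises among 37 tested genes of the unfolded protein and integrated stress responses, which had a median of 0.39 (0.29 and 0.80) and no fall. Of 24 chaperone genes 2 rose, the muscle small heat shock genes Hspb2 (1.68 and 3.14) and Hspb3, which was detected at 48 h alone and at least 2.92-fold higher. Chac1 was not called with the BeadChip as a fixed block (adjusted p = 0.0548).

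The 250 bases before the starts of Fgf21 and Chac1 are printed because both rose with this list and hold TGATGNAA, a common core of the composite ATF4 element. The motif is in capitals and starts at position -139 in Fgf21 and -193 in Chac1, on the opposite strand in both. It was in 4.5% of riser windows, 1.5% of faller windows and 2.4% of windows of tested genes, and Herpud1 holds it as well.
Fgf21 (chr7:45615491-45615740, minus strand): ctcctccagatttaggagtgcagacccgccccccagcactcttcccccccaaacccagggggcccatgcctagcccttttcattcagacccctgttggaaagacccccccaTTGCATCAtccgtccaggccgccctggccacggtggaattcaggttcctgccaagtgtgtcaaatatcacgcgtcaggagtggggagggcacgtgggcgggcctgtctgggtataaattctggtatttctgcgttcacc
Chac1 (chr2:119350992-119351241, plus strand): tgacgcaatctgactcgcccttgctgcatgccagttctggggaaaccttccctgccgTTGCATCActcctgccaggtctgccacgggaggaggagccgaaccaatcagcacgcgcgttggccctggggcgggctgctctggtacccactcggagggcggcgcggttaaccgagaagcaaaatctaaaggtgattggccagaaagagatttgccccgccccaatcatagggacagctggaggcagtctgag

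Igf2, which encodes insulin-like growth factor II, was already bright at 18 h and read 11.62 and 11.13 at 18 h and 14.13 and 14.30 at 48 h, a difference of 2.83 ± 0.45 (SE, n = 2) with close replicates (adjusted p = 0.0452 and 0.00121). It was the one call among 17 tested genes of the insulin-like growth factors and their binding proteins. Fst, follistatin, read 8.07 and 6.81 at 18 h and 10.58 and 10.19 at 48 h (adjusted p = 0.151 and 0.00241). Fndc5, the membrane precursor of irisin, read 7.61 and 6.67 at 18 h and 10.05 and 10.44 at 48 h (adjusted p = 0.0909 and 0.00242). In each of these genes both 48 h values were above both 18 h values. Tgfb3, a TGF-beta ligand, rose by 1.20 and 2.10, and C1qtnf3, a secreted C1q/TNF-related protein, by 1.65 and 2.38 (adjusted p with the block 0.0308 and 0.00502). Chil1, a secreted chitinase-like lectin, was at background on both 18 h arrays and at least 11.2-fold higher at 48 h (adjusted p = 0.0447 and 0.00611). Among growth factors outside the insulin-like family Hgf, the ligand of the Met receptor, moved the other way and fell by 1.30 in replicate 1 and at least 3.29-fold in replicate 2, where it was at background at 48 h (adjusted p = 1 and 0.0154).

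The rest of the 15 largest rises outside these lists came from scattered families. Mustn1, a small nuclear protein of the musculoskeletal system, read 8.80 and 8.14 at 18 h and 11.28 and 12.78 at 48 h (adjusted p = 0.0941 and 0.0116). Prkag3, the regulatory gamma subunit of AMP-activated kinase found in fast skeletal muscle, read 7.86 and 6.17 at 18 h and 10.04 and 10.92 at 48 h (adjusted p = 0.303 and 0.0138). Both genes have muscle roles though they stood in none of the lists. Rap1gap2, an activator of the Rap1 GTPase, read 7.51 and 6.37 at 18 h and 9.89 and 11.02 at 48 h (adjusted p = 0.189 and 0.0105). Slc2a6, a hexose transporter of the GLUT family, read 8.83 and 8 at 18 h and 10.78 and 11.71 at 48 h (adjusted p = 0.0717 and 0.005). Vamp5, a SNARE protein of muscle vesicles, read 7.60 and 8.68 at 18 h and 9.57 and 11.62 at 48 h (adjusted p = 0.784 and 0.00358), where the 18 h value of replicate 2 came within 1 unit of the 48 h value of replicate 1.

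Some of these genes are textbook markers of other organs. Ctrb1 encodes the pancreatic zymogen chymotrypsinogen B and read 7.10 and 6.81 at 18 h and 9.62 and 11.35 at 48 h (adjusted p = 0.0601 and 0.00261). Otog encodes otogelin, a glycoprotein of the membranes of the inner ear, and read 7.98 and 6.58 at 18 h and 10.58 and 10.63 at 48 h (adjusted p = 0.16 and 0.00204). Each was read from a single tested probe, detected on all 4 arrays, and the times did not overlap. Gprc5c, an orphan G protein-coupled receptor, rose by 1.77 and 4.08, Dlgap4, a scaffold protein of postsynaptic densities, by 2.76 and 2.12, and Aamdc by 2.72 and 2.33 (adjusted p with the block 0.0125, 0.00419 and 0.00129).

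**Figure D2:**
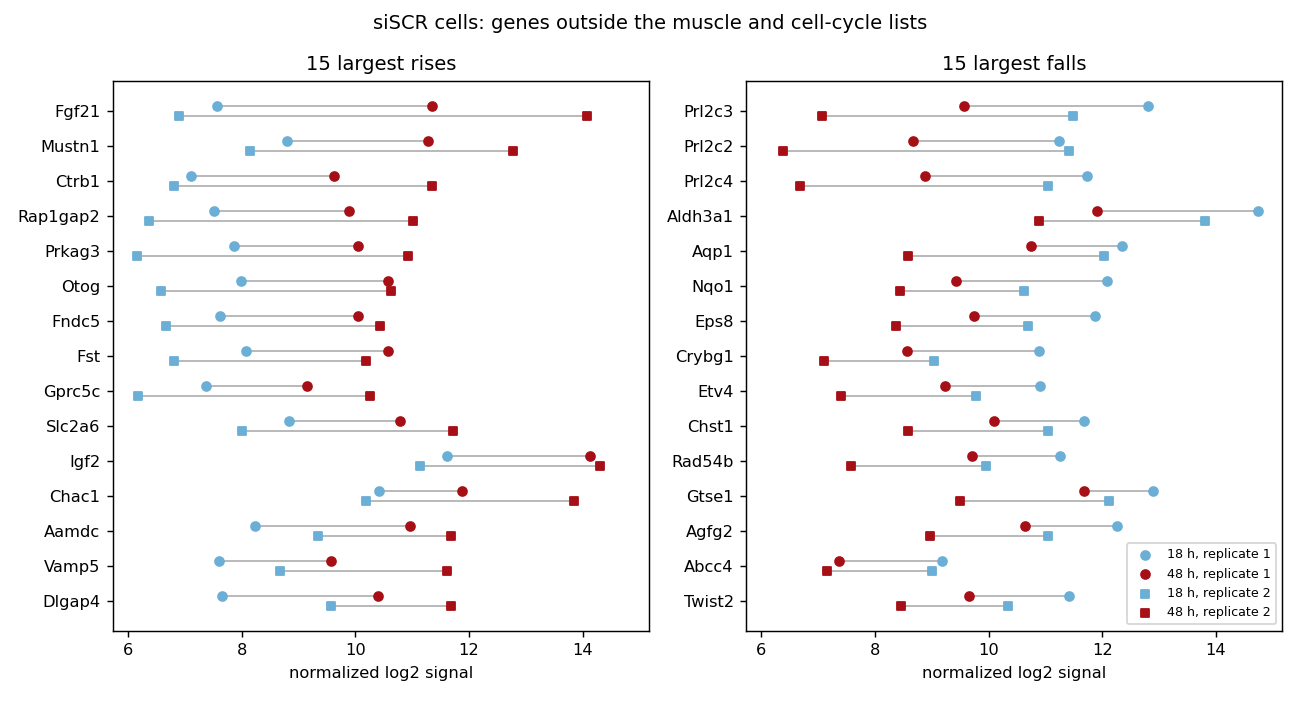
Normalized log2 signal of siSCR cells at 18 h (blue) and 48 h (red) in replicate 1 (circles) and replicate 2 (squares) for the 15 largest rises (left) and 15 largest falls (right) among genes outside the muscle and cell-cycle lists that were detected on all 4 arrays and called. Lines join the times of a replicate. Every line on the left runs to the right from 18 h to 48 h and every line on the right runs to the left, and in replicate 2 Fgf21 spans the longest line.

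Of all genes tested 155 were detected on both 48 h arrays and on neither 18 h array, and 42 the other way round. The bound of the first kind was largest for Ankrd2 and Myoz2. Next to Chil1 and Tmem182 it held Fn3k, a kinase that removes fructose bound to proteins (at least 10.9-fold, adjusted p = 0.0327 and 0.00334), and Dhrs7c, a dehydrogenase of the sarcoplasmic reticulum (at least 9.29-fold, adjusted p = 0.0656 and 0.00358). Ablim3, an actin-binding LIM protein, was at least 8.02-fold higher, BC051019 at least 10.1-fold and Tceal5 at least 6.77-fold (adjusted p without the block 0.0354, 0.0391 and 0.0305). Aatk, a membrane tyrosine kinase known from neurons, was at least 6.94-fold higher (adjusted p = 0.0193 and 0.00133). The bounds were lower in replicate 1, where the detection limit at 18 h lay at 6.72 log2 units against 6.02 in replicate 2.

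Channels and transporters moved both ways. Of 22 tested ion channel genes 3 rose and 2 fell. The potassium channel genes Kcnk13 and Kcnc1 were detected at 48 h alone, at least 4.63-fold higher for the former and 1.72-fold for the latter (adjusted p with the block 0.00225 and 0.0211), and the sodium-calcium-potassium exchanger gene Slc24a3 rose by 1.11 and 1.60. Kcnk5 fell from 8.77 and 8.17 at 18 h to 7.68 and 6.69 at 48 h (adjusted p = 1 and 0.0366), though its other tested probe had the opposite sign. Of 36 nutrient and metal transporters 2 rose, Slc2a6 and the nucleoside transporter gene Slc29a1 (1.19 and 1.63). The organic anion transporter Slco4a1, named after its values were seen, had the lowest fitted difference of all called genes, which includes a background signal. It read 11.83 and 10.34 at 18 h and 8.98 and 5.25 at 48 h, and the 48 h value of replicate 2 was at background, so that it fell by 2.85 in replicate 1 and at least 20.8-fold in replicate 2 (adjusted p = 0.411 and 0.00603). Kcnc1, Kcnk5 and Slc29a1 were not called with the BeadChip as a fixed block (adjusted p = 0.0533, 0.0758 and 0.0746). Kcnk5 was not called with the BeadChip as a random block (adjusted p = 0.0609).

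Protein turnover and matrix genes rose in part. Of 37 genes of autophagy, lysosome and muscle ubiquitin ligases 5 rose and none fell, with a median of 0.46. The named members were Klhl41, Klhl40 and Klhl31, kelch proteins that stabilise or turn over sarcomere proteins, and the deubiquitinase Usp2. Klhl41 read 9.98 and 9.76 at 18 h and 12.91 and 12.87 at 48 h (adjusted p = 0.0206 and 0.000674) and Usp2 rose by 2.46 and 2.28 (adjusted p with the block 0.0203). Of 45 collagen, glycoprotein and proteoglycan genes 6 rose and none fell, with a median of 0.07. Col1a1, the main fibrillar collagen, and Prelp, a leucine-rich proteoglycan, were at background at 18 h in replicate 1. Col1a1 was at least 4.36-fold higher there and rose by 1.97 in replicate 2 (adjusted p = 0.57 and 0.00648), and Prelp at least 5.96-fold and by 2.22 (adjusted p = 0.0357 and 0.00168). Col23a1, a transmembrane collagen, and Mfap4, a microfibril protein, were detected at 48 h alone, higher by at least 3.04-fold and 2.29-fold. Among 33 matrix proteases and crosslinking enzymes 1 rose (3.03%, beside 2.24% of all genes tested). This was the transglutaminase gene Tgm2, by 1.32 and 1.01 (adjusted p = 0.857 and 0.0445). Klhl40, Usp2, Mfap4 and Tgm2 were not called with the BeadChip as a fixed block (adjusted p = 0.0522, 0.0647, 0.0764 and 0.114). Tgm2 was not called with the BeadChip as a random block (adjusted p = 0.0826).

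Among listed markers of fibroblasts and tendon, of adipocytes, of bone and cartilage and of blood and vessels, calls came from fibroblasts and tendon alone. Krt13, Krt14, Itgb7, Ctrb1 and Otog, called as well, stood outside these lists. Of 18 fibroblast and tendon markers 11 were tested and 3 of these rose (27.3%), beside 2.24% of all genes tested. These were Scx (2.01 and 1.52), a tendon transcription factor, Dcn (1.93 and 1.87), decorin, and Islr (1.14 and 2.06). The list median was 0.53 (0.53 and 0.11 in the replicates), with 7 of 11 detected on all 4 arrays. In both replicates 7 of the 11 were higher and 2 lower. Of 13 adipocyte, 18 bone and cartilage and 17 blood and vessel markers, 4, 6 and 4 passed the detection filter, and 1, 0 and 1 were detected on all 4 arrays. None was called by limma with or without the block, and 0, 1 and 2 had an unadjusted p under 0.05 with it. The defining genes Adipoq and Plin1 of adipocytes, Bglap and Sp7 of osteoblasts and Pecam1, Cdh5 and Ptprc of vessels and blood did not pass the filter. The summed linear signal of the 11 fibroblast and tendon markers was 8218 and 16142 at 18 h and 17053 and 30695 at 48 h, so it was higher at 48 h within each replicate. The called genes Scx, Dcn and Islr are part of this sum, which weighs bright genes most. Nothing is read from it about the other markers of the list. The part of these markers in the matrix result was not tested. Islr was not called with the BeadChip as a fixed block (adjusted p = 0.0713). Scx was not called with the BeadChip as a random block (adjusted p = 0.054).

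**Figure D3:**
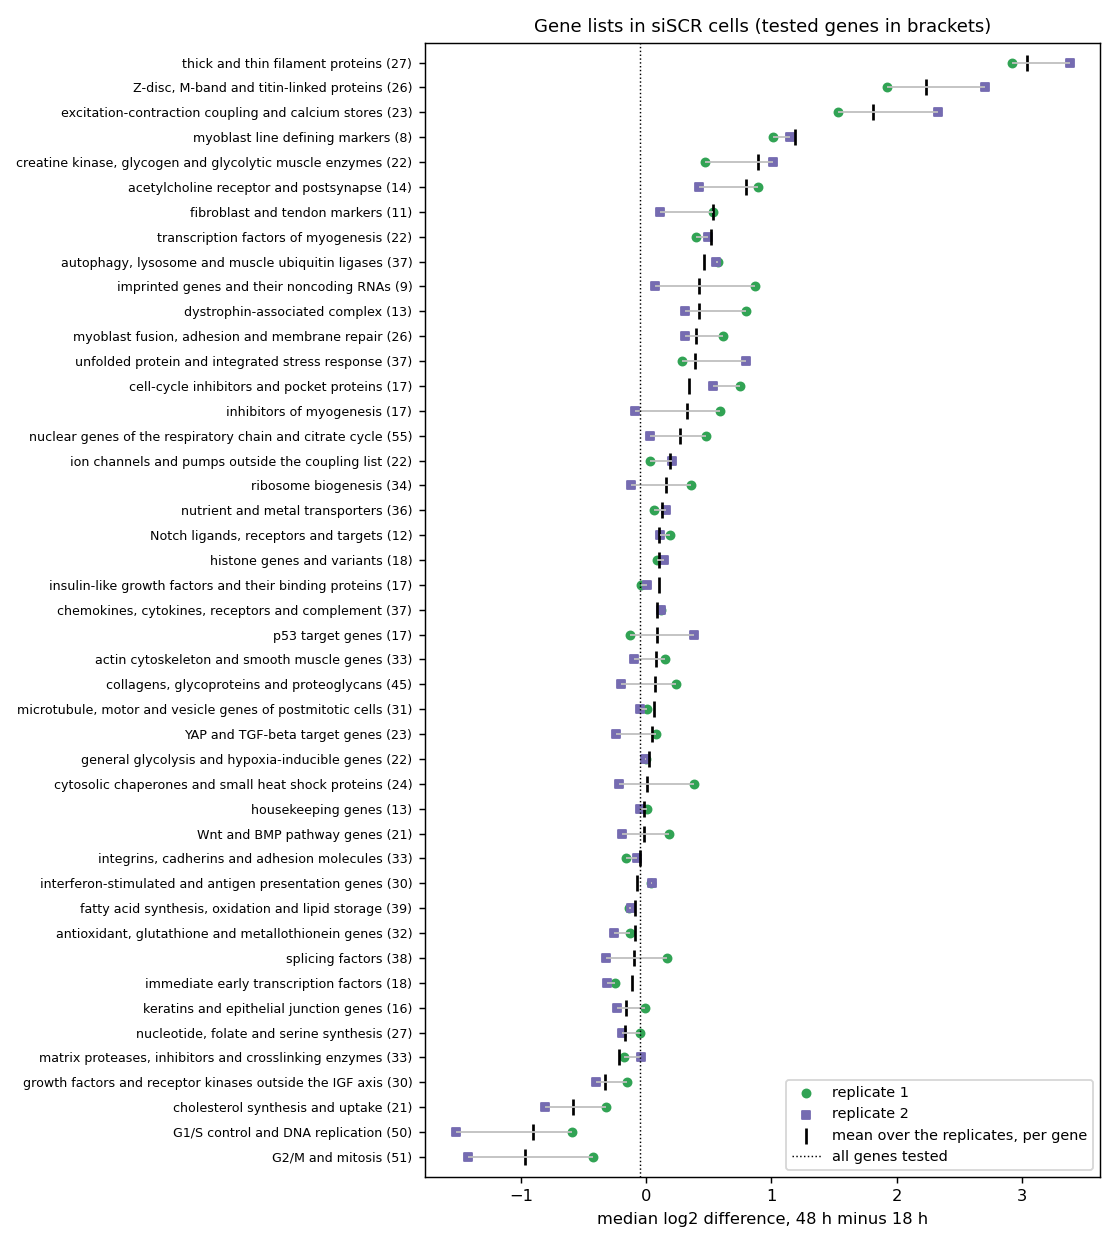
Median difference between 48 h and 18 h over the tested genes of each list with at least 8 of them, in log2 units, in replicate 1 (circles) and replicate 2 (squares), with bars for the median of the genes' mean differences. The dotted line is the median of all genes tested (-0.05). The sarcomere, Z-disc and calcium lists stand at the top with 3.04, 2.23 and 1.81, and both cell-cycle lists at the bottom with -0.90 and -0.97.

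Among genes detected on all 4 arrays the largest falls belonged to proliferins, secreted hormones of the prolactin family that proliferating mouse cells make. Prl2c3 read 12.80 and 11.48 at 18 h and 9.57 and 7.07 at 48 h (difference -3.82 ± 0.85 (SE, n = 2), adjusted p = 0.189 and 0.00244). Prl2c2 read 11.24 and 11.42 at 18 h and 8.66 and 6.38 at 48 h (adjusted p = 0.112 and 0.0192), and the probe annotated to Prl2c4 read 11.73 and 11.04 at 18 h and 8.88 and 6.68 at 48 h (adjusted p = 0.0724 and 0.00544). All 3 were lower at 48 h in both replicates without overlap. These genes are near-identical copies, and the RefSeq table gives Prl2c4 as another name of Prl2c3, so the probes cannot be read as separate genes.

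Detoxifying enzymes formed the next group. Aldh3a1, an aldehyde dehydrogenase, was among the brightest genes at 18 h and read 14.74 and 13.80 at 18 h and 11.90 and 10.88 at 48 h, a difference of -2.89 ± 0.48 (SE, n = 2) that was nearly the same in both replicates (adjusted p = 0.0532 and 0.00243). Nqo1, a quinone reductase, read 12.09 and 10.62 at 18 h and 9.42 and 8.45 at 48 h (difference -2.42 ± 0.68 (SE, n = 2), adjusted p = 0.433 and 0.00261). For both genes the 2 times did not overlap. Gclm, the modifier subunit of the first enzyme of glutathione synthesis, read 9.53 and 9.54 at 18 h and 8.07 and 7.54 at 48 h (adjusted p = 0.216 and 0.0149). Of 32 tested antioxidant, glutathione and metallothionein genes 5 fell (15.6%) and none rose. The others were Srxn1, sulfiredoxin (-1.09 and -1.37), Mt2, a metallothionein (-1.39 in replicate 1 and at least 2.32-fold lower in replicate 2), and Mgst3, a microsomal glutathione transferase (-0.93 and -1.26), which is named to complete the list. The list median was -0.09, close to that of all genes, and became 0.29 with median scaling. Gsta2, an alpha-class glutathione transferase outside the list, was at background on both 48 h arrays and fell at least 3.84-fold (adjusted p = 0.373 and 0.0429), and the efflux pump gene Abcc4 read 9.17 and 9.01 at 18 h and 7.36 and 7.16 at 48 h (adjusted p = 0.535 and 0.0434). Mt2, Mgst3 and Abcc4 were not called with the BeadChip as a fixed block (adjusted p = 0.0822, 0.0827 and 0.0508). Mgst3 was not called with the BeadChip as a random block (adjusted p = 0.0555).

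The 250 bases before the start of Gclm are shown for the element TGACNNNGC, the core of the antioxidant response element bound by NRF2 with small Maf proteins, which is in capitals, on the opposite strand, and starts at position -134. This motif was in 15.5% of riser windows, 16.1% of faller windows and 14% of windows of tested genes. The windows of Srxn1, Mt2 and Abcc4 hold it too, and those of Nqo1, Gsta2 and Mgst3 do not.
Gclm (chr3:122245307-122245556, plus strand): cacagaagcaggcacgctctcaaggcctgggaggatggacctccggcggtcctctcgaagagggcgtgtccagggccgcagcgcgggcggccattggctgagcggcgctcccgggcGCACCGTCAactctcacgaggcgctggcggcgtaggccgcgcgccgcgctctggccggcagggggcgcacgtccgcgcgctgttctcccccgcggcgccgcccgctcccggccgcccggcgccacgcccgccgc

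Epithelial and adhesion genes gave the only falls that the fit without a block called. Krt13, a keratin of stratified epithelia, read 9 and 8.43 at 18 h and 5.65 and 5.27 at 48 h, and Itgb7, the beta-7 integrin subunit of lymphocytes, read 9.31 and 8.06 at 18 h and 5.71 and 5.31 at 48 h. Both were at background on the 48 h arrays. Krt13 fell at least 6.19-fold (adjusted p = 0.0222 and 0.000847) and Itgb7 at least 6.06-fold (adjusted p = 0.0452 and 0.00279). Of 16 tested keratin and junction genes 2 fell, the other being Krt14, a basal cell keratin, which read 11.12 and 9.42 at 18 h and 8.94 and 8 at 48 h (adjusted p = 1 and 0.0174). Of 33 integrins, cadherins and adhesion molecules 4 fell and 2 rose. The falls were Itgb7, Itgb4 of hemidesmosomes (-1.55 and -1.32), and, named after their values were seen, Itga3 (-1.40 and -1.38) and Itgav (-1.12 and -1.20). The rises were the tetraspanin gene Cd82 (1.43 and 1.87) and Itgb6 (2.65 and 1.02). Krt14, Itgb4, Itga3, Itgav and Itgb6 were not called with the BeadChip as a fixed block (adjusted p = 0.059, 0.0719, 0.0548, 0.102 and 0.117). Itgb4 and Itgav were not called with the BeadChip as a random block (adjusted p = 0.0891 and 0.088).

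Further genes fell outside the lists. Aqp1, a water channel, read 12.34 and 12.03 at 18 h and 10.75 and 8.59 at 48 h (adjusted p = 0.368 and 0.0169). Eps8, an actin-capping substrate of the EGF receptor, read 11.87 and 10.70 at 18 h and 9.74 and 8.37 at 48 h (adjusted p = 0.644 and 0.00181). Etv4, an ETS transcription factor downstream of FGF and ERK signalling, read 10.90 and 9.77 at 18 h and 9.22 and 7.39 at 48 h (adjusted p = 0.943 and 0.00647). In Eps8 and Etv4 the 18 h values of both replicates lay above both 48 h values, whereas in each gene the 18 h value of replicate 2 was within 1 unit of the 48 h value of replicate 1. Chst1, a sulfotransferase of keratan sulfate, fell (-1.57 and -2.46), as did Crybg1 (-2.33 and -1.92) and Agfg2 (-1.62 and -2.07) (adjusted p with the block 0.0121, 0.00432 and 0.0138). Nuak2, a kinase of the AMPK family on the list of YAP and TGF-beta targets, fell (-1.40 and -1.65, adjusted p with the block 0.0124). Tnfsf9, a TNF family ligand, differed by -1.86 in replicate 1 and fell at least 1.92-fold in replicate 2 (adjusted p with the block 0.0424). F2rl3, the thrombin receptor PAR4, was detected at 18 h alone and fell at least 2.28-fold (adjusted p with the block 0.0289). Tnfsf9 and F2rl3 were not called with the BeadChip as a fixed block (adjusted p = 0.103 and 0.0919). Tnfsf9 was not called with the BeadChip as a random block (adjusted p = 0.103).

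Several genes with a bound on the 18 h side were not called with or without the block. These were Rasl11a (at least 2.71-fold, adjusted p with the block 0.0537), the receptor gene Fgfr2 (at least 2.2-fold, 0.0694), the EGF-family ligand gene Btc (at least 2.07-fold, 0.061), Sp8 (at least 2-fold, 0.0824) and the kinetochore gene Mis12 (at least 1.91-fold, 0.0949). A p of this size does not show that the levels were the same. Another 3 ligands called with the block are named after their values were seen. Gdnf (-1.89 and -1.63), Angpt2 (-1.36 and -2.26) and Wnt7b (-1.43 and -2.17) fell (adjusted p with the block 0.0299, 0.0393 and 0.0185). Gdnf, Angpt2 and Wnt7b were not called with the BeadChip as a fixed block (adjusted p = 0.0936, 0.0653 and 0.0648). Gdnf was not called with the BeadChip as a random block (adjusted p = 0.0832).

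The cell-cycle genes were lower as a group and few passed the test singly. Of 50 tested genes of G1/S control and replication 38 were lower in both replicates and 4 higher in both, with a median of -0.90 (-0.59 and -1.52), and 6 fell (12%). Of 51 tested genes of G2 and mitosis 40 were lower in both and 1 higher in both, with a median of -0.97 (-0.42 and -1.42), and 5 fell (9.8%). None was called without the block. With the BeadChip as a fixed block 4 and 4 of them were called lower, and with it as a random block 13 and 8 were called. Over all genes tested 3458 of 10847 were lower in both replicates and 2751 higher in both. With median scaling the medians of the 2 lists were -0.55 and -0.47. Ccne2, a cyclin E, read 10.45 and 9.13 at 18 h and 8.41 and 6.47 at 48 h (difference -2.35 ± 0.84 (SE, n = 2), adjusted p = 0.79 and 0.00244). The replication factors Mcm4 (-0.98 and -2.73), Gins1 (-1.14 and -2.11) and Chaf1b (-0.96 and -2.27) fell with it. Among the mitotic genes Anln, the anillin of the cleavage furrow, read 14.47 and 13.20 at 18 h and 12.61 and 10.71 at 48 h (adjusted p = 0.803 and 0.00881), and the kinase genes Aurka (-1.54 and -2.01) and Plk1 (-1.14 and -1.93) and the cyclin gene Ccnf (-1.36 in replicate 1 and at least 3.23-fold lower in replicate 2) fell as well. The steps were larger in replicate 2 in each of the genes given here with both values. Mcm4 and Plk1 were not called with the BeadChip as a fixed block (adjusted p = 0.0797 and 0.0855). Ccnf was not called with the BeadChip as a random block (adjusted p = 0.0774).

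The genes that follow stood outside these lists and were named singly because they fell, and no list of DNA repair genes was counted. Gtse1, a p53-binding protein of G2, read 12.89 and 12.12 at 18 h and 11.68 and 9.50 at 48 h (adjusted p = 0.913 and 0.0284). Rad54b, a recombination helicase, read 11.26 and 9.95 at 18 h and 9.71 and 7.58 at 48 h (adjusted p = 0.989 and 0.0154), and Palb2, the partner of BRCA2, was detected at 18 h alone and fell at least 2.23-fold (adjusted p = 0.548 and 0.032). Named after their values were seen are the helicase genes Blm (-1.69 and -1.72) and Recql4 (-1.17 and -1.62), Rad54l (-1.16 and -2.49) and Brip1, also a helicase gene, which fell by 1.53 in replicate 1 and at least 4.57-fold in replicate 2 (adjusted p with the block 0.01, 0.0456, 0.0166 and 0.0133). On the same terms Suz12, a subunit of the Polycomb complex PRC2, fell (-1.16 and -1.25), as did Mir17hg, the host transcript of the miR-17 cluster (-1.14 and -1.34) (adjusted p with the block 0.0497 and 0.0487). The array reads the host transcript and not the mature miRNAs. Gtse1, Recql4, Suz12 and Mir17hg were not called with the BeadChip as a fixed block (adjusted p = 0.0556, 0.124, 0.113 and 0.108). Recql4, Suz12 and Mir17hg were not called with the BeadChip as a random block (adjusted p = 0.078, 0.0667 and 0.124).

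On the side of the brakes 2 of 17 cell-cycle inhibitors rose. Cdkn1c, the inhibitor p57, rose by 1.34 in replicate 1 and at least 7.19-fold in replicate 2, where it was at background at 18 h (adjusted p = 0.666 and 0.0414). Gadd45a, a growth arrest gene, read 10.07 and 10.29 at 18 h and 11.67 and 13.54 at 48 h (adjusted p = 0.293 and 0.0222). Cdkn1a, the inhibitor p21, read 14.29 and 13.47 at 18 h and 15.32 and 16.12 at 48 h, and Ccnd1, cyclin D1, read 13.34 and 13.69 at 18 h and 12.56 and 10.65 at 48 h. Neither passed the test with the replicate block (adjusted p 0.0525 and 0.0818), whereas with the BeadChip as a random block both did (0.00819 and 0.0176) and as a fixed block Cdkn1a did (0.0251 and 0.0561), and in both the step in replicate 2 exceeded that in replicate 1 by more than 1 unit. Pmaip1, the proapoptotic Noxa, was the one rise among 17 p53 targets, at least 2.24-fold in replicate 1 and 2.15 on the log2 scale in replicate 2. Of 9 tested genes on the list of imprinted genes 3 rose, Cdkn1c, Dcn and Gnas. Gnas rose by 1.82 and 1.40 on the brightest of 4 tested probes, whose signs were not all the same. Igf2, an imprinted gene that rose, was counted with the insulin-like growth factors and not on this list. Cdkn1c, Gadd45a, Pmaip1 and Gnas were not called with the BeadChip as a fixed block (adjusted p = 0.102, 0.0647, 0.0625 and 0.0799). Gnas was not called with the BeadChip as a random block (adjusted p = 0.166).

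With the replicate block, calls among the lipid genes came from the fatty acid list alone. None of 21 cholesterol genes was called by either limma fit, though 10 had an unadjusted p under 0.05 with the block, beside 2182 of the 10847 genes tested. The cholesterol genes had a median of -0.58 (-0.32 and -0.81) and 14 lower in both replicates, and the median was -0.07 with median scaling. Lss and Hsd17b7, both enzymes of the pathway, had the smallest p in the fit without the block and differed by -1.28 and -2.01 and by -0.38 and -2.23. With the BeadChip as a fixed or a random block Lss was called lower (adjusted p = 0.0459 and 0.0145), though its other tested probe had the opposite sign. Of 39 genes of fatty acid synthesis, oxidation and storage 3 fell (7.69%) and 1 rose (2.56%), beside 1.16% and 2.24% of all genes tested. Acly, which supplies cytosolic acetyl-CoA, fell (-0.97 and -1.94), as did the phosphatidate phosphatase gene Lpin1 (-1.32 and -1.48) and Pdk4, a kinase that inhibits pyruvate dehydrogenase (-2.30 and -1.20) (adjusted p with the block 0.0469, 0.0332 and 0.0136). Fabp3, the heart and muscle fatty acid carrier, rose by 3.47 in replicate 2 and at least 4.4-fold in replicate 1 (adjusted p = 0.112 and 0.00464). Acly and Lpin1 were not called with the BeadChip as a fixed block (adjusted p = 0.0922 and 0.0676).

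Splicing regulators gave 1 rise and 1 fall in 38 tested genes (2.63% each), beside 2.24% and 1.16% of all genes tested. Nothing is read about the family from these counts. Ptbp1, the splicing repressor that keeps muscle and neuronal exons out, read 14.48 and 13.70 at 18 h and 13.22 and 11.96 at 48 h (adjusted p = 0.919 and 0.0312), and all 10 of its tested probes had the same sign. Rbfox1, a muscle and neuronal splicing factor, was at background at 18 h in replicate 1 and at least 12.1-fold higher at 48 h, and rose by 1.92 in replicate 2 (adjusted p = 0.216 and 0.0341). Of 31 microtubule and vesicle genes 1 rose (3.23%), again near the share of all genes. This was Map4, a microtubule-associated protein, by 1.90 in replicate 2 and at least 1.1-fold in replicate 1. None was called, with or without the block, among 34 ribosome biogenesis, 27 nucleotide and one-carbon, 18 histone, 22 glycolysis and hypoxia, 33 actin cytoskeleton and smooth muscle, 30 interferon and antigen presentation and 18 immediate early genes. Of these 182 genes 2 had an unadjusted p under 0.05 without the block and 38 with it, beside 596 and 2182 of the 10847 genes tested. The list medians lay between -0.17 and 0.16. Of 13 housekeeping genes none was called by limma with or without the block, 2 had an unadjusted p under 0.05 with it, and the median was -0.02. Gapdh differed by 0.08 and -0.10 and Actb by -0.33 and -0.39 in the replicates. Ptbp1 and Map4 were not called with the BeadChip as a fixed block (adjusted p = 0.0898 and 0.128). Map4 was not called with the BeadChip as a random block (adjusted p = 0.0786).

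Some single genes that rose were named after their values were seen. They form no list, and nothing is drawn about them as a group. Ddc, aromatic amino acid decarboxylase, read 8.37 and 7.37 at 18 h and 9.84 and 10.24 at 48 h (adjusted p with the block 0.029). Dbh, dopamine beta-hydroxylase, and Htr2b, a serotonin receptor, were at background on both 18 h arrays and exceeded it at 48 h by at least 1.6-fold and 3.65-fold (adjusted p with the block 0.0396 and 0.00987). Chrd, the BMP antagonist chordin, rose by 1.78 and 2.72. Kremen2, a receptor for the Wnt inhibitor Dickkopf, was detected at 48 h alone, at least 3.3-fold higher (adjusted p = 0.0432 and 0.00241). Hdac11, a class IV histone deacetylase, rose by 2.70 in replicate 2 and at least 3.39-fold in replicate 1, and Nmrk2, a muscle kinase of NAD synthesis, was at least 4.14-fold higher (adjusted p with the block 0.00456 and 0.00561). Ddc and Dbh were not called with the BeadChip as a fixed block (adjusted p = 0.0547 and 0.121).

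The time step was also present in the cells given siBRM or siBRG1, which were measured on other arrays of the same BeadChips. Of the 243 risers of siSCR cells 241 were higher at 48 h in both replicates of siBRM cells and 232 in both of siBRG1 cells, beside 3157 (29.1%) and 3362 (31%) of all genes tested. With the block 185 and 90 of them were called higher there, beside 231 (2.13%) and 111 (1.02%) of all genes. Of the 126 fallers all 126 were lower in both replicates of siBRM cells and 122 in both of siBRG1 cells, with 47 and 8 called, beside 3443 (31.7%) and 3673 (33.9%) of all genes lower in both and 85 (0.784%) and 11 (0.101%) called lower. The 4 fallers that were not lower in both siBRG1 replicates were Krt14, Gcnt2, Gnb4 and Pfkfb2, named after their values were seen. In replicate 1 each time lay on its own BeadChip in all 3 kinds of cells, so a BeadChip difference would be shared by them, and its part in these counts was not tested. These counts do not test a difference between the cells. The test of the difference itself, the interaction of siRNA and time in limma, called 0 genes for siBRM and 0 for siBRG1 with and without the replicate block. An unadjusted p under 0.05 was reached by 14 and 47 of the 10847 genes tested without the block and by 172 and 424 with it. Nothing is read from these counts. Gnb4 and Pfkfb2 were not called with the BeadChip as a fixed block (adjusted p = 0.119 and 0.0986). Gnb4 and Pfkfb2 were not called with the BeadChip as a random block (adjusted p = 0.145 and 0.0605).

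Fgf21 rose by 5.85 and 6.32 in the replicates of siBRM cells and by 5.77 and 6.06 in those of siBRG1 cells, beside 3.78 and 7.18 in siSCR cells. Casq2 rose by 6.36 and 5.19 and by 4.30 and 4, beside 4.21 and 6.18. The steps of Eps8 were -2.29 and -2.33 with siBRM and -0.85 and -1.09 with siBRG1, beside -2.13 and -2.33 with siSCR, and those of Nqo1 were -2.51 and -3.31 and -1.58 and -1.32, beside -2.67 and -2.18. For Eps8 both siBRG1 values were nearer to 0 than both siSCR values, and the interaction had an unadjusted p of 0.00494 with the block that did not pass the adjustment over all probes (adjusted p = 0.999). Eps8 was not alone in this, as Nqo1, Itgb7, Hrc and Sgca were placed alike. So was Krt13, with -1.59 and -1.38 under siBRG1 beside -3.35 and -3.16 under siSCR (unadjusted interaction p with the block 0.00288, adjusted p = 0.999). For Fgf21, Cox6a2 and Prl2c2 the values overlapped. Krt14, named here after its values were seen, differed by -2.18 and -1.42 with siSCR, -1.77 and -2.08 with siBRM and 0.04 and 1.15 with siBRG1, an unadjusted interaction p of 0.00035 (adjusted p = 0.999). With 2 arrays a group no gene passed the adjustment.

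**Figure D4:**
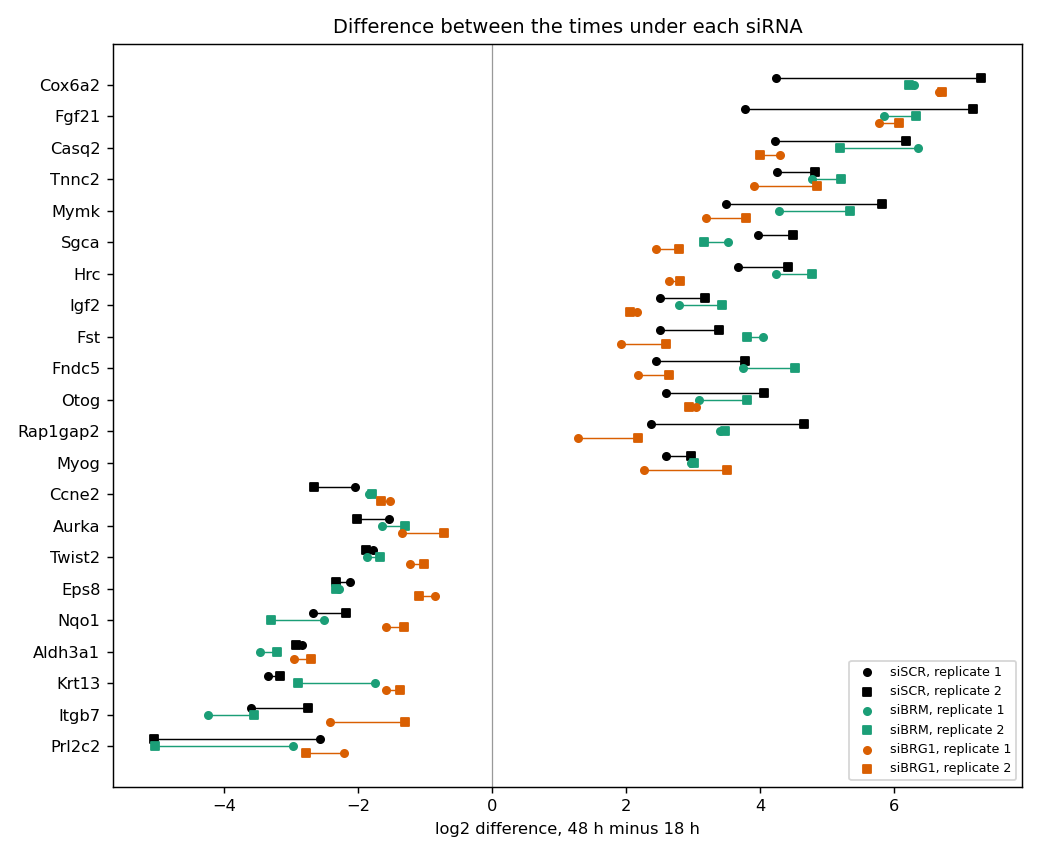
Difference between 48 h and 18 h in log2 units for 22 named genes under siSCR (black), siBRM (green) and siBRG1 (orange), with replicate 1 as circles and replicate 2 as squares joined by a line. Each gene has the same sign in all 6 values. For several genes, among them Eps8, Krt13, Itgb7, Nqo1, Hrc and Sgca, both siBRG1 points lie nearer to 0 than both siSCR points. For others, such as Fgf21, Cox6a2 and Prl2c2, the points overlap. No gene had a called difference between the siRNAs.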

How the data were processed

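The RNA of 12 C2C12 samples was measured on Illumina mouse BeadChips, 2 in each of 6 groups. The deposited intensities are bead-averaged signals per probe, not normalized, and the deposited detection p-values set each probe against the negative controls of its array. Per the file headers the same table holds, as other units, bead numbers and bead standard errors. Per the submitters' processing notes GenomeStudio 2009.1 was used, with settings not given in the sources used here. A further deposited table holds intensities with nearly equal quantiles on every array, taken here as the authors' normalized values and used as an alternative alone.

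Of 45281 probes 34885 had 1 gene symbol in GEO's platform annotation, 18 had several and 10378 had none. Background was inferred from the detection p-values by normexp with an offset of 16 in limma 3.58.1 (R 4.3.3, statmod 1.5.0), and the arrays were quantile normalized and taken to log2. Probes with a detection p under 0.05 on at least 2 arrays were tested (20415 probes, 10847 genes), and a gene was read from its brightest tested probe. Of 4219 genes with several tested probes 2418 had 1 sign in all. The main limma fit gave each of the 6 groups a mean over all 12 arrays (6 residual degrees of freedom), and the alternative added the replicate number as a block (5). All tests were two-sided, and p-values were adjusted over the tested probes by the Benjamini-Hochberg method. Standard errors come from the fit without the block. The deviations of same-numbered replicates from their group means correlated in all 15 pairs of groups (r between 0.442 and 0.842). The numbers come from the labels and are taken to pair the samples. The precision is limited by 2 arrays a group, and the fits were tested on simulated data. These data held a shift between the replicate numbers and no BeadChip difference between the times. They therefore cannot show how such a difference in replicate 1 would affect the calls. No 2 arrays held identical values.

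The named genes are those detected on all 4 siSCR arrays, called in either fit and of 1 sign in both replicates, with the 12 largest rises and falls and the 15 largest outside the muscle and cell-cycle lists. Added are the 10 largest bounds among genes detected at 1 time alone, up to 4 called members of each list (or the 2 with the smallest p in the fit without the block), and Smarca2, Smarca4, Myod1, Myog, Mef2c, Ckm, Ccnd1, Cdkn1a, Gapdh and Actb. The groups compared, the lists and this rule were chosen with earlier results of these data known. A bound is the mean over the arrays of the bright time against the higher of the detection limit and the probe's own signal at the dim time. Promoter windows are those of RefSeq on GRCm38.p6, matched by symbol. The alternatives tried were blocks, scalings, background corrections, filters, the choice of probe, the siSCR arrays alone and leaving out each siSCR array.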

Additional observations from a re-analysis of the deposited data

How the results depend on the processing

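Without a block 35 genes were called higher and 2 lower. With the replicate block, where the numbers are taken to pair the samples, it was 243 and 126. With the BeadChip as a fixed block it was 191 and 59, and with the BeadChip as a random block 258 and 146. All 37 calls of the fit without a block were kept under each of these 3 blocks. Of the 369 calls with the replicate block 217 were kept with the fixed and 294 with the random BeadChip block, and of the 125 named by the rule 32 and 11 were not. With the siSCR arrays alone 66 and 6 were called, with the mean of a gene's probes 57 and 4, with an offset of 50 45 and 4, and with all probes tested 25 and 1. Median scaling gave 0 and 0 (389 genes at an unadjusted p under 0.05, limma). Leaving out 1 siSCR array at a time, with and without the replicate block, gave 0 to 556 higher and 0 to 781 lower, where the lone array of an arm is assumed to vary like the other groups. Without the block, leaving out either 18 h array or the 48 h array of replicate 2 gave no call (250 to 624 genes at an unadjusted p under 0.05), and leaving out the 48 h array of replicate 1 gave 18 and 1. With the block the counts in that order were 71 and 8, 115 and 14, 115 and 23, and, without the 48 h array of replicate 1, 556 and 781. The following were chosen after seeing the data, each with the replicate block: median scaling gave 379 and 16, the authors' normalized values 361 and 329, no background correction 375 and 358, and the siSCR arrays alone 230 and 69. The cause of these differences was not tested. Over these alternatives the values of the 166 named genes stayed on their side of the threshold in 2727 cases, passed it in 912 and fell short of it in 143, 0 called values changed sign, and 28 values that were not called did. Of 48 list medians 18 kept their sign in all 24 settings and 30, with main values from -0.36 to 0.33, did not. The interaction of siRNA and time gave 0 calls with each block. Dim probes set a limit in replicate 1, where the detection limit at 18 h was 6.72 log2 units.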
